A study of Glycine max with 4 samples.

Results

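Close groups of ABI3 regions in the outer parts of soybean chromosomes are described here from a chromatin immunoprecipitation (ChIP-seq) study of embryos at the mid-maturation stage. The lists of enriched regions came from Glycine max cultivar Williams 82, from seeds of 200 to 250 mg, and the antibody recognises a peptide (residues 118 to 132) of GLYMA.08G357600, a gene that the submitters' file naming ties to ABI3. The study has 4 ChIP samples, from 2 biological replicates that were each sequenced as 2 technical replicates, all of 1 genotype, stage and antibody, and 1 list of regions was used for each biological replicate. No untreated or mutant group is part of these samples, and the input controls that the study design names were not analysed here as separate samples. A clustered outer region is a region of the replicate 2 list, placed under a chromosome name with the prefix Chr, whose summit lay in the first or last 20% of its chromosome and had at least 1 other summit of the same list within 30 kb. Of the 2460 regions of that list, 1436 had Chr names, 1000 of these lay in the outer parts, and 239 of the 1000 were clustered outer regions. The other 761 outer regions had no such neighbour and are called solitary. Called positions of replicate 2 chose the regions, so their number and spacing are descriptions without a test. The list of replicate 1, with 939 regions, took no part in the choice apart from the chromosome lengths.

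ABI3 is a transcription factor of the B3-domain family, first described in Arabidopsis through mutants whose seeds are insensitive to abscisic acid. Together with related B3 factors and with bZIP partners it acts on genes for storage proteins, oil-body proteins and proteins made before drying, and the DNA element its B3 domain is known to contact is called the RY element. Mid-maturation is the stage at which a soybean embryo fills with protein and oil. No label or file names the genome build of the lists and no genome was used, so genes and bases at these positions were not analysed here.

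The 239 clustered regions formed 114 groups, 103 of 2 regions and 11 of 3, with neighbouring summits at most 30 kb apart in each. All 20 chromosomes held some. Chromosome 6 held the most, 22 in 10 groups, followed by chromosome 9 with 18, chromosome 18 with 17, chromosome 4 with 16 and chromosome 8 with 15. Chromosome 20 held the fewest, with 4. As a share of a chromosome's outer regions, they ran from 12.5% on chromosome 20 to 32.8% on chromosome 6. The beginnings and the ends of the chromosome numbering contributed alike, with 119 and 120 regions in 55 and 59 groups. Some chromosomes held them at 1 end only: all 11 of chromosome 3, all 12 of chromosome 13 and all 4 of chromosome 20 lay in the last 20%. On chromosome 3 most solitary regions also lay in the last 20%. The numbers of outer regions at each end were not compared for chromosomes 13 and 20.

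"Near the ends" is a broad description of these positions. The median clustered region lay 3415 kb from the nearer end, and the median solitary region 3812 kb. Of the clustered regions 34.7% lay within the outermost 5% of a chromosome, against 31.0% of the solitary regions. Chromosome length is taken as the last called position of either list, so on every chromosome the last region stands at its end by construction. A neighbour within 30 kb was found for 21.0% of all Chr regions, namely for 23.9% of outer regions (exact 95% binomial interval 21.3 to 26.7%) and for 14.2% of the 436 interior regions (11.1 to 17.9%). The outer parts held 2.65 regions per Mb and the interior 0.77, a difference in density that moves with the share of regions that have a neighbour, and its part in that share was not tested.

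**Figure D1:**
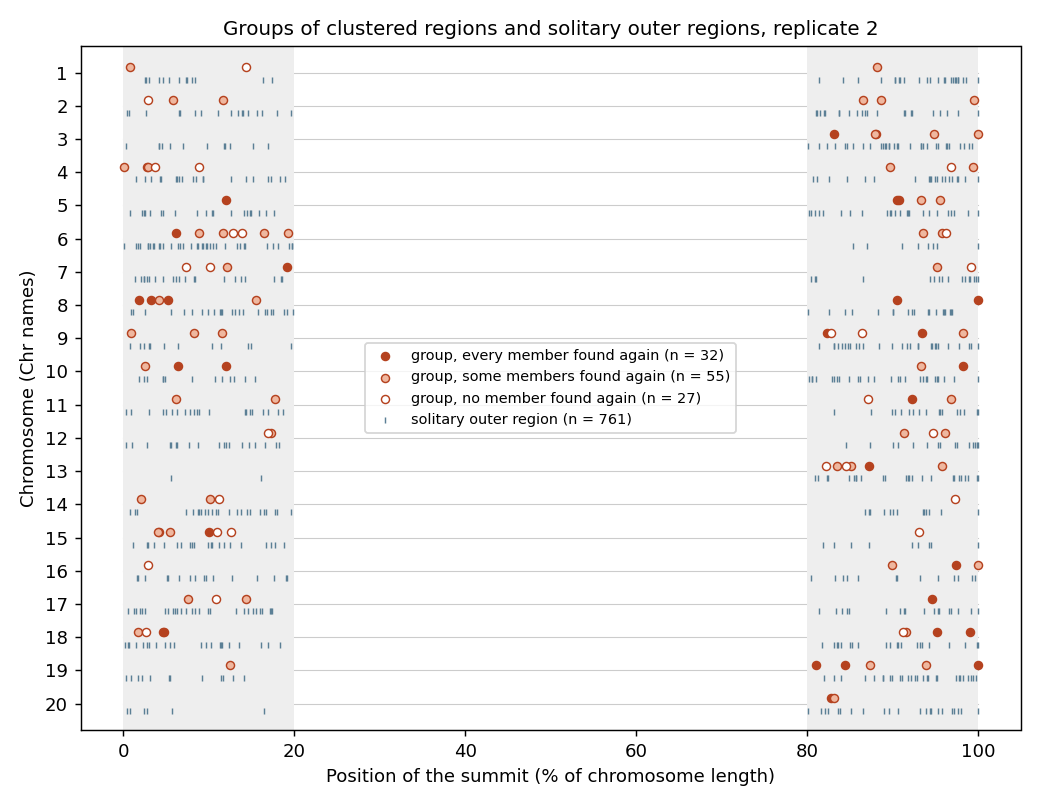
Groups of clustered regions (circles, at the mean position of their members) and solitary outer regions (ticks) of replicate 2, by position in % of chromosome length on the horizontal axis and by chromosome on the vertical axis; the grey bands are the outer 20%. Filled circles are the 32 groups with every member found again in replicate 1, pale circles the 55 with some and open circles the 27 with none, and all 3 kinds occur at both ends of the numbering.

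Summits within a group stood a median of 11.1 kb apart over the 125 neighbouring pairs. The middle 50% of these distances ran from 4.48 to 23.0 kb, and a whole group spanned a median of 12.1 kb and at most 53.8 kb. Only 12 distances were under 1 kb, and 3 of these were under 500 bp, the upper size of the sheared chromatin per the labels' protocols. A further 45 distances lay between 1 and 10 kb and 68 between 10 and 30 kb, of which 37 exceeded 20 kb.

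In the 3 closest pairs each summit held 30 fragments or fewer in replicate 2. On chromosome 2, regions at 1359036 to 1359304 and 1359364 to 1359637 had summits 213 bp apart, with 22 and 27 fragments at the summit in replicate 2, and neither was found again in replicate 1. On chromosome 4, the regions at 50285737 to 50285956 and 50286013 to 50286408 were 324 bp apart, with 20 and 30 fragments, and again neither was found again. The other of the 3, on chromosome 2 at 2800359 to 2801126, had 30 and 22 fragments 464 bp apart, and the stronger was found again with 24 fragments. Fragment counts are whole numbers recovered from the authors' fold and p-value of each region, and they carry counting error: 30 fragments have a 95% Poisson interval of 20.2 to 42.8.

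Near the 30 kb limit, the widest pairs that still counted were on chromosome 10 at 29954 bp, on chromosome 1 at 29885 bp and on chromosome 4 at 29604 bp. The nearest solitary regions that missed it lay on chromosome 2 at 30096 bp, on chromosome 4 at 30355 bp and on chromosome 2 at 30894 bp. Some groups also stood just over 30 kb from the next group. On chromosome 3 these were the groups at 40009786 to 40016311 and at 40045802 to 40069289. On chromosome 15 they were the groups at 2064667 to 2089320 and at 2119847 to 2122771. A slightly wider limit would have joined them, so the largest group size depends on the limit. No clustered region stood close to the 20% limit. The innermost lay 19.2% from an end, on chromosome 6, and the next regions with a neighbour on the far side of the limit lay 23.4% from an end, on chromosome 20.

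In replicate 2 the clustered regions resembled the solitary regions in strength and width. Fold enrichment, the authors' ratio of ChIP signal to local background at the summit, had a median of 6.27 among clustered regions (quartiles 5.37 and 8.66, range 2.13 to 26.4) and of 5.99 among solitary regions (quartiles 5.05 and 7.86, range 1.48 to 30.0). The median summit held 30 fragments in clustered and 29 in solitary regions, and the upper quartile was 43 and 38. Clustered regions were a median of 333 bp wide, against 311 bp for solitary regions. These values come from the contrast that chose the regions and are given without a test.

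The strongest clustered region was on chromosome 10 at 47482820 to 47483601. It held 127 fragments in replicate 2 (95% Poisson interval 106 to 151), a fold of 26.4, and 88 fragments in replicate 1 (70.6 to 108), a fold of 13.7. Its partner 29954 bp away, at 47513040 to 47513377, held 21 fragments in replicate 2 and had no region in replicate 1. The 2 members of this group thus stood 5.81 times apart in fold, the largest ratio of the 114 groups.

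The next strongest, on chromosome 3 at 37825560 to 37826228, belonged to the strongest group in which every member was found again. It held 116 fragments in replicate 2 and 80 in replicate 1. Its neighbour 5444 bp before it, at 37820217 to 37820662, held 66 and 61 fragments. Both members were high in both replicates, with folds of 24.2 and 13.9 in replicate 2 and of 17.3 and 11.4 in replicate 1.

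The remaining 3 of the 5 strongest clustered regions each stood beside a far weaker one. On chromosome 10 at 3259073 to 3259563, 98 fragments in replicate 2 and 67 in replicate 1 stood 933 bp from a region of 30 and 23 fragments. On chromosome 18 at 969795 to 970309, 84 and 38 fragments stood 15087 bp from a region with 34 in replicate 2 alone. On chromosome 13 at 38877609 to 38878153, 81 and 54 fragments stood 23463 bp from a region with 20 in replicate 2 alone. In each case the stronger region was found again, and the weaker was found again only in the pair 933 bp apart.

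At the other end of the scale, the 3 weakest clustered regions by −log10 q were on chromosome 20 at 38740866 to 38741118 with 17 fragments, on chromosome 11 at 6088705 to 6089068 with 18, and on chromosome 1 at 476332 to 476565 with 22. The region of chromosome 11 was the only one of the 3 found again in replicate 1, with 21 fragments and a summit 225 bp away, the largest summit shift of all clustered regions found again. Only 2 clustered regions stood on a high local background, defined as over 2 times the lowest of the list. That of chromosome 8, at 43113034 to 43113428, held 115 fragments in replicate 2 and 101 in replicate 1 but had folds of only 2.13 and 2.69. Its partner 779 bp away held 43 and 30 fragments with folds of 9.096 and 6.605. The other high-background region, on chromosome 4 at 1471464 to 1471976, held 42 fragments in replicate 2 and 26 in replicate 1. Its folds were 4.84 and 5.75.

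More than 1 in every 2 clustered regions was found again in replicate 1. A region counts as found again where a replicate 1 region overlaps it by at least 1 bp under the same name, which held for 42.3% of all 1436 Chr regions of replicate 2. Among clustered regions the count was 125 of 239 (52.3%, exact 95% binomial interval 45.8 to 58.8%), and among solitary regions 308 of 761 (40.5%, 37.0 to 44.1%). The difference was 11.8 percentage points (4.37 to 19.2, combined from both exact intervals). These intervals cover counting error over regions. With 1 list per replicate no test over replicates exists, and members of a group share their neighbourhood. Counting only the member with the lowest coordinate in each group gave 60 of 114 (52.6%).

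The share found again climbed with strength in replicate 2 for both kinds of region, and the clustered and solitary shares stood farthest apart in the middle of the strength range. All Chr regions of replicate 2 were divided into 4 strength classes of near equal size by −log10 q. Class 1, the weakest, had 5 of 50 clustered regions found again (10%) and 22 of 222 solitary regions (9.91%). In class 2 the counts were 22 of 65 clustered (33.8%, 22.6 to 46.6%) and 34 of 170 solitary regions (20%, 14.3 to 26.8%). In class 3 they were 36 of 58 clustered (62.1%, 48.4 to 74.5%) and 88 of 188 solitary regions (46.8%, 39.5 to 54.2%). In class 4, the strongest, they were 62 of 66 clustered (93.9%) and 164 of 181 solitary regions (90.6%). Within each class the intervals of the 2 shares overlapped. Such overlap does not show that the shares are equal, and no interval of the difference was formed within classes. At the solitary share of each class, 105 of the 239 clustered regions would have been found again (43.9%), which is 8.41 points below the observed 52.3%.

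**Figure D2:**
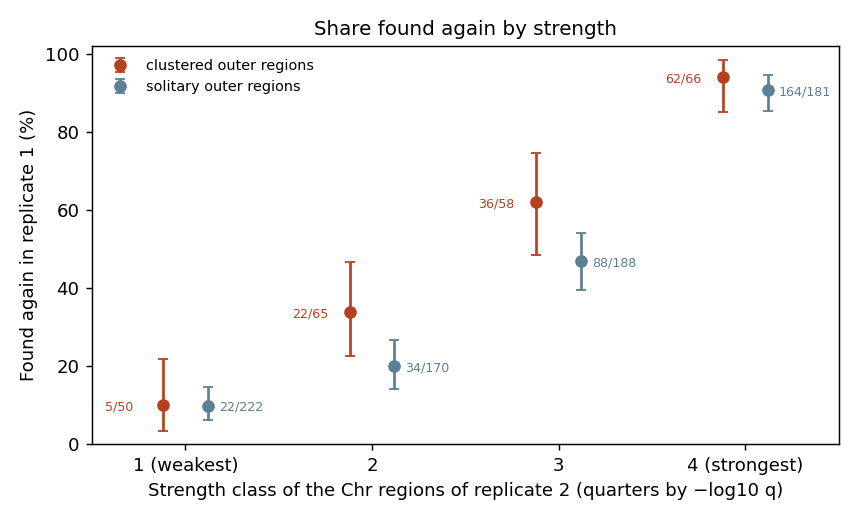
Share of clustered and solitary outer regions of replicate 2 that were found again in replicate 1 (vertical axis, %, with exact 95% binomial intervals), by strength class of −log10 q in replicate 2 (horizontal axis); the fractions are counts of regions. Both kinds climb from 10% or less in class 1 to over 90% in class 4, with clustered regions above solitary regions in classes 2 and 3 and intervals that overlap.

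The difference had the same direction at both ends of the chromosome numbering. In the first 20% of chromosomes, 58 of 119 clustered regions (48.7%) and 143 of 360 solitary regions (39.7%) were found again. In the last 20%, the counts were 67 of 120 clustered (55.8%) and 165 of 401 solitary regions (41.1%). Chromosomes varied widely on small numbers. On chromosome 8, 13 of 15 clustered regions were found again, beside 31 of all 58 outer regions. The counts were 9 of 11 beside 25 of 55 on chromosome 5 and 8 of 10 beside 27 of 50 on chromosome 10. They were 2 of 9 beside 13 of 46 on chromosome 14 and 2 of 7 beside 18 of 44 on chromosome 1. The clustered share lay below the share of all outer regions on chromosomes 1, 2, 4, 7 and 12 to 16, and above it on the others.

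Distance to the neighbour did not order the shares. Of clustered regions with a neighbour less than 1 kb away, 12 of 24 were found again (50%, 29.1 to 70.9%). At 1 to 10 kb the count was 53 of 88 (60.2%, 49.2 to 70.5%) and at 10 to 30 kb 60 of 127 (47.2%, 38.3 to 56.3%), with intervals that overlapped one another. Regions in groups of 3 were found again in 17 of 33 cases (51.5%) and regions in groups of 2 in 108 of 206 (52.4%). A clustered region whose nearest neighbour had been found again was itself found again in 68 of 124 cases (54.8%), and one whose neighbour had not in 57 of 115 (49.6%).

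Where clustered regions were found again, their strength in replicate 1 was close to that of solitary regions. The median fold in replicate 1 was 5.97 for the 125 clustered regions (quartiles 5.33 and 7.67) and 6.18 for the 308 solitary regions (quartiles 5.54 and 7.88). The interval of the difference in medians, over regions and not over replicates, ran from −0.68 to 0.25. Only regions called in replicate 1 have a value there, so the same calling limit cuts both kinds from below. A difference in strength was therefore not tested. The median summit held 28 fragments in both. In replicate 2 the same clustered regions held a median of 39 fragments and those not found again 26. Replicate 1 gave fewer fragments than replicate 2 at 108 of the 125, beside 270 of the 308 solitary regions and 534 of all 608 Chr regions found again. Summits of the 2 replicates lay a median of 29 bp apart in clustered and 31 bp in solitary regions, and 89.6% and 94.2% lay within 100 bp.

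**Figure D3:**
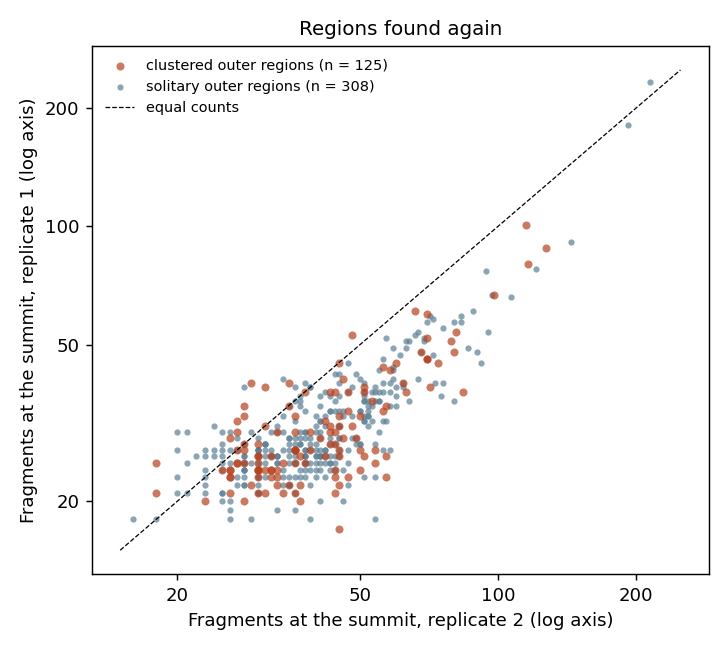
Fragments at the summit in replicate 2 (horizontal, log axis) and replicate 1 (vertical, log axis) for the 125 clustered and 308 solitary outer regions found again; the dashed line marks equal counts. Most points of both kinds lie under the line, and the clustered regions are spread through the solitary ones up to 127 fragments.

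Not being found again was not confined to weak regions. The strongest clustered regions without a replicate 1 region were on chromosome 3 at 40009786 to 40010215 with 47 fragments, on chromosome 1 at 49903219 to 49903592 with 46 and on chromosome 5 at 40334286 to 40334785 with 41. In all 3 groups the partner was found again. The partner on chromosome 3, 5999 bp away, held 60 fragments in replicate 2 and 45 in replicate 1. The partner on chromosome 1, 4334 bp away, was the weaker of its pair in replicate 2 with 27 fragments and held 30 in replicate 1. The partner on chromosome 5, 6982 bp away, held 43 and 38. The fewest fragments at any called summit of replicate 1 were 17, so absence from that list does not show that a region was unbound.

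Groups were found again in full, in part or not at all. Every member was found again in 32 of the 114 groups (28.1%), some but not all in 55 (48.2%) and none in 27 (23.7%). Among the 103 groups of 2, both members were found again in 31, 1 member in 46 and none in 26. The median stronger and weaker members held 48 and 33 fragments in replicate 2 where both were found again, 37 and 26 where 1 was, and 29 and 24 where none was. In the 46 groups with 1 member found again, this was the member with the higher fold in 40 and the other in 6.

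**Figure D4:**
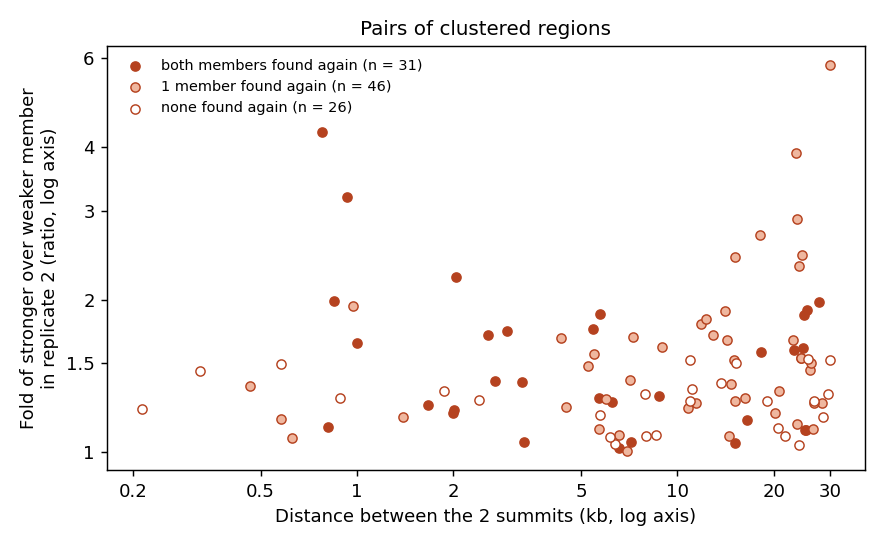
The 103 groups of 2 clustered regions, by distance between the 2 summits (horizontal, kb, log axis) and by the ratio of the higher to the lower fold in replicate 2 (vertical, log axis); shading gives how many of the 2 members were found again in replicate 1. All 3 shades occur from under 1 kb to near 30 kb, and most ratios lie below 2.

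Within groups the fold of the strongest and weakest members usually differed by less than 2 times. The highest fold was a median of 1.37 times the lowest in the same group (quartiles 1.21 and 1.69) and was at least 2 times as high in 13 groups. The stronger member was the nearer to the chromosome end in 57 groups and the farther in 57. In the 32 groups found again in full, each member overlapped a separate region of replicate 1. The member with the highest fold in replicate 2 was above the one with the lowest in replicate 1 as well in 25 of these 32 groups. This held in 14 of the 16 groups whose folds differed by at least 1.5 times in replicate 2, and in 11 of the 16 whose folds lay closer. The distance between the strongest and weakest summits changed by a median of 48 bp and by at most 212 bp between the replicates.

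The groups of 3 were led by chromosome 18, 2730039 to 2737217, the only 1 of the 11 with every member found again. Its members held 50, 74 and 34 fragments in replicate 2, at distances of 2906 and 3858 bp, and 27, 45 and 21 in replicate 1. The middle region was the highest in both replicates and the last region the lowest.

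In the other leading groups of 3 at least 1 member was missing from replicate 1. On chromosome 9, 5767291 to 5796115, the counts in replicate 2 were 45, 29 and 57, and replicate 1 held 31 at the first and 23 at the last, so the order of these was turned. On chromosome 6, 5931187 to 5964802, replicate 2 held 38, 30 and 43 fragments, and replicate 1 held 24 and 28 at the last 2. The first region of this group, the second highest in replicate 2, had no region in replicate 1.

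On chromosome 3, 43168040 to 43188754, replicate 2 held 26, 26 and 56 fragments at nearly equal distances of 10040 and 10194 bp, and only the last region was found again, with 34. On chromosome 5, 39404346 to 39444135, replicate 2 held 36, 45 and 24, and replicate 1 held 30 and 27 at the first and second. A group outside the rule for named regions, on chromosome 8 at 1984356 to 2022013, was chosen after its values were seen. Here the counts ran the other way from most regions: replicate 2 held 18, 23 and 31, and replicate 1 held more, 25 and 39, at the first and last.

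**Figure D5:**
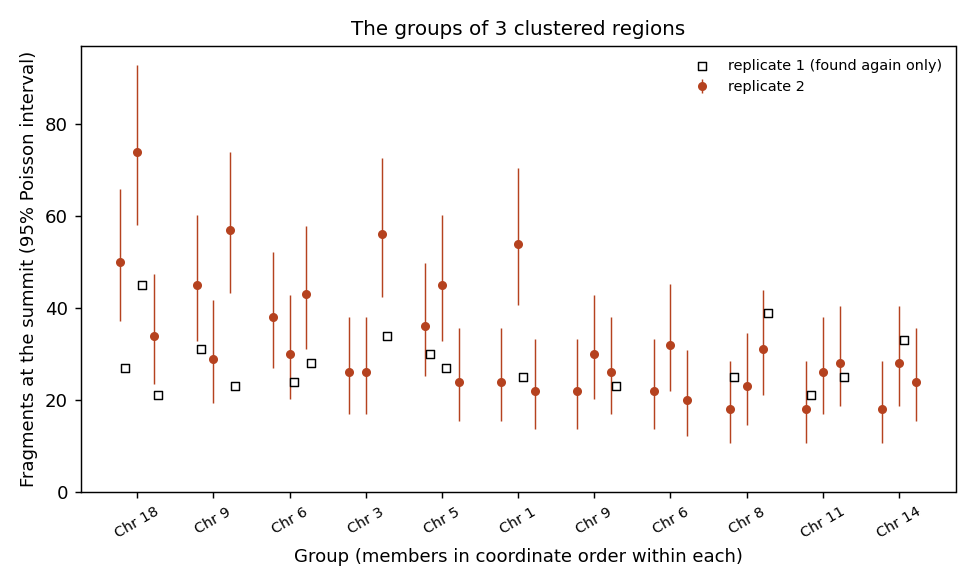
Fragments at the summit (vertical axis) for the members of the 11 groups of 3, in coordinate order within each group and with groups ordered by their summed count in replicate 2. Circles with 95% Poisson intervals are replicate 2, and open squares are replicate 1 where the region was found again; in the chromosome 18 group at the left all 3 squares are present and lie below their circles.

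Several groups of 2 were strong and present in both replicates. After the chromosome 3 group described above, the group with the strongest weaker member was on chromosome 9, 41035382 to 41060980, with 57 and 63 fragments in replicate 2 and 26 and 38 in replicate 1, 25142 bp apart. The group on chromosome 11, 31766230 to 31769304, held 71 and 51 fragments 2693 bp apart in replicate 2 and 39 and 38 in replicate 1. On chromosome 10, 6108935 to 6116036, both members were nearly equal in replicate 2, with 47 and 48 fragments 6584 bp apart, and held 34 and 53 in replicate 1.

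Chromosomes 5 and 18 each held more than 1 strong group within a short stretch. On chromosome 5, the group at 38217752 to 38221482 held 56 and 51 fragments in replicate 2 and 44 and 39 in replicate 1. The group at 38301238 to 38327009, less than 100 kb farther on, held 41 and 79 in replicate 2 and 29 and 51 in replicate 1. On chromosome 18, the group at 2683293 to 2698886 lay just before the leading group of 3 and held 47 and 45 fragments in replicate 2 but only 23 and 17 in replicate 1. A group near the other end of that chromosome, 55166218 to 55169916, held 45 and 43 in replicate 2 and 26 and 31 in replicate 1.

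Groups of this kind were also found on chromosomes 19 and 7. On chromosome 19, 42561337 to 42570704, replicate 2 held 46 and 68 fragments and replicate 1 held 41 and 48. On chromosome 7, 8460892 to 8479742, replicate 2 held 70 and 44 and replicate 1 held 46 and 38. In both groups the stronger member was the same in the 2 replicates.

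When the rule was applied to replicate 1 alone, 86 of its 463 outer regions were clustered (18.6%), in 41 groups. Of these 86, 72 overlapped a clustered outer region of replicate 2, 4 overlapped another region of replicate 2, and 10 overlapped none. High local background was recorded for 6 of those 10. Over all 463 outer regions of replicate 1, 30 overlapped none. The clustered regions of replicate 1 thus lacked an overlap more often than its outer regions as a whole, and no interval was formed. All members overlapped a clustered region of replicate 2 in 35 of the 41 groups.

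The lists also hold chromosome names with the prefix Gm in the same numbering, and the spacing of many groups recurred there. Whether a region under each name is the same place was not tested here, so a recurring distance is not a separate observation, and a place that replicate 1 listed under its Gm name alone counts above as not found again. For 50 of the 125 neighbouring pairs (40%, exact 95% binomial interval 31.3 to 49.1%), 2 regions of replicate 2 on the Gm chromosome of equal number stood at the same distance within 100 bp. These were 48 distinct Gm pairs, since 2 of them, on chromosomes 8 and 18, each matched 2 groups. On the 19 Gm chromosomes of other numbers this occurred in 5.18% of 2375 comparisons. That level pools all distances and was uneven over them. For the 12 distances under 1 kb, from 0 to 8 of the 19 other numbers had a match, with 8 at 811 bp on chromosome 6. For distances over 10 kb, from 0 to 3 had one. The pooled level is therefore too low for the closest pairs. The recurrence was 28 of 35 pairs where both members had been found again in replicate 1 (80%), 17 of 60 where 1 had (28.3%; 15 without the more distant match of each shared Gm pair) and 5 of 30 where none had (16.7%). Stronger regions were found again more often, as given above, and the part of strength in this order was not tested. The shift between Chr and Gm positions was alike for some neighbouring groups. It was 290.2 and 290.1 kb for 2 neighbouring groups of chromosome 5, and 1716 kb for a group near its other end. Other matches of chromosome 5 were less alike. Farther on from the first 2 groups, it was 1504 kb for a pair of the group at 39404346 to 39444135. For the next group, at 40327494 to 40334785, it was 322.1 kb, and the Gm matches of these stood in reversed order. On chromosome 18 it was 10.37 to 10.41 kb for the leading group of 3 and the group just before it. A group near the other end of chromosome 18 had a shift of 4272 kb.

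The strongest pair on chromosome 3, with summits 5444 bp apart, had its counterpart on Gm chromosome 3 at 39837127 to 39843185, with summits 5491 bp apart, and both Gm regions were also called in replicate 1. The pair on chromosome 7, 18237 bp apart, recurred at 18243 bp on Gm chromosome 7, 8420892 to 8439639. The close pair on chromosome 4, 324 bp apart and absent from replicate 1, recurred at 323 bp on Gm chromosome 4, 47154762 to 47155370. Of the 28 recurring pairs with both members found again under their Chr names, replicate 1 called both Gm regions in 12, 1 in 10 and neither in 6. Where 1 member had been found again, it called 1 of the 2 Gm regions in 9 of the 17 recurring pairs and neither in 8, and 2 of these 8 are the more distant matches of the shared Gm pairs. Where no member had been found again, replicate 1 called neither Gm region in all 5.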

How the data were processed

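The authors aligned reads and called regions with tools named in the submitters' processing notes, Bowtie 0.12.7 and MACS2. No source used here names the settings, the build, the threshold or whether technical replicates were pooled. The deposited lists hold start, end and summit positions, printed here from 1, and a score, which equals 10 times the −log10 q-value in whole numbers and was not used. The deposited fold is a ratio of signal to background, and the deposited p-values and q-values are −log10 values. A whole fragment count with fold = (count + 1)/(background + 1) and the deposited Poisson p-value was found within 0.001 for 100% of rows of both lists. This inversion and the neighbour rule were checked on simulated data. Library totals were not analysed here. Python 3.11.15, pandas 2.3.3 and scipy 1.17.1 were used. Intervals (Clopper-Pearson for shares, Poisson for counts, order statistics for medians) cover counting error only. The regions and all comparisons were chosen with earlier results of these data known. Named regions are the 5 largest groups, with ties in size broken by the summed summit fragments in replicate 2, so strength chose among the groups of 3. Also named are the 10 fully found-again groups with the strongest weakest member, and the 5 strongest and 3 weakest regions. The rest are the 3 strongest not found again, the 3 closest pairs and those nearest the 30 kb limit. The 2 high-background regions and a chromosome 8 group were added after their values were seen. Alternatives changed the distance, the outer share, the threshold, the overlap rule, joining and high-background regions.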

Additional observations from a re-analysis of the deposited data

How the results depend on the processing

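Clustered regions were found again more often than solitary regions under all 12 alternatives tried, 2 of them chosen after seeing the data. The difference was 7.40 to 17.2 percentage points, and the clustered share was 46.9 to 58.0% over the 11 that apply to it. All 12 kept replicate 2 as the list that chose the regions. With replicate 1 as the choosing list the direction was the opposite. There 10 of 86 clustered regions overlapped no region of the other list, against 30 of all 463 outer regions. The difference in median replicate 1 fold stayed between −0.21 and −0.14. The number of clustered regions depends on the rule by construction: it was 112 in 55 groups with neighbours within 10000 bp, 140 in 67 groups in the outer 10%, and 336 in 154 groups within 50000 bp. The shorter list of replicate 1 alone gave 86 clustered regions in 41 groups. Leaving out replicate 1 could change only the chromosome lengths, and the 239 regions in 114 groups stayed the same. No paired analysis was possible because all samples form 1 group with no contrast. Clustered summits held a median of 30 fragments in replicate 2, and what depth limits in these lists was not tested, since library totals were not analysed.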

Other observations

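Close neighbours also occurred in the chromosome interiors. Of 436 interior Chr regions of replicate 2, 62 had another summit within 30 kb, and 30 of the 62 were found again in replicate 1 (48.4%, exact 95% binomial interval 35.5 to 61.4%), against 40.1% of all interior regions. Their median fold in replicate 2 was 6.13.

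Replicate 1 added 1 region beside the clustered regions that replicate 2 did not list. It lay on chromosome 13 at 38122061 to 38122389, 794 bp from the nearest clustered summit, and held 25 fragments (95% Poisson interval 16.2 to 36.9).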
